A study of Mus musculus with 4 samples.

Results

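The loci of 6 mouse pluripotency factors, Pou5f1, Klf4, Nanog, Esrrb, Sall4 and Zfp42, were examined in 4 chromatin immunoprecipitation sequencing (ChIP-seq) libraries of neural progenitor-like cells. A peak was a member when its summit lay inside 1 of 6 windows of build mm9. The windows were chr17:35610000-35680000 for Pou5f1, chr4:55450000-55600000 for Klf4, chr6:122600000-122720000 for Nanog, chr12:87650000-87900000 for Esrrb, chr2:168520000-168650000 for Sall4 and chr8:44330000-44440000 for Zfp42. Of the 125330 peaks called on chromosomes 1 to 19 and X, 51 were members. They were 10 of 28338 EGFP_OK peaks, 3 of 16604 Pax6 peaks, 10 of 30931 Etv6 peaks and 28 of 49457 H3K4me2 peaks.

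All libraries came from stem cell-derived, neural progenitor-like cells of the 129/SvJ strain at passage 15 to 18, grown with EGF and FGF-2 at 10 ng/ml each. For EGFP_OK, Pax6 and Etv6 the antibody was M2, which binds the FLAG tag. For the fourth library it was directed to H3K4me2, which is histone H3 carrying 2 methyl groups on lysine 4. The titles name Pax6 and Etv6 with NS, and EGFP_OK with N31. No H3K4me2 library had NS in its title, so Pax6 and Etv6 peaks are set here against the mark of a differently titled library. The H3K4me2 title has N31 as well, with Oct4, EGFP and 0 hr. Oct4 is another name of Pou5f1, and what the term denotes in that title, which protein carried the tag in EGFP_OK, and how the tagged proteins were expressed are not given in the sources used here. Each group was 1 library without a control library, so values carry no replicate error, no test between libraries was possible, and intervals cover counting error only. Tags kept after removal of duplicates numbered 21498324 for EGFP_OK, 24071748 for Etv6, 24550365 for H3K4me2 and only 5288154 for Pax6.

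As background, embryonic stem cells hold their undifferentiated state through a network of transcription factors that bind their own and each other's enhancers. Pou5f1 is a POU factor that binds the octamer, often beside Sox2, and Nanog is a homeodomain protein that works with both. Klf4 is a Krüppel-like zinc finger factor, Esrrb an orphan nuclear receptor and Sall4 a spalt-type zinc finger protein. Zfp42, also called Rex1, is a zinc finger protein used as a marker of undifferentiated stem cells. These genes are mostly turned down when stem cells become neural, and forced expression of Pou5f1 and Klf4 with other factors turns differentiated cells back. H3K4me2 marks active and poised promoters and enhancers, but by itself does not show transcription. Pax6 is a paired-box and homeodomain factor of the eye and forebrain, and Etv6 is an ETS-family repressor. In chromatin from many cells, a mark in a few cells and a weak mark in all of them cannot be told apart.

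The promoters of 5 of the 6 genes were found in the RefSeq table of build GRCm38.p6, and 4 are shown here over the 250 bases before an annotated start. The promoter of Zfp42 is shown because it holds motifs searched for, and those of Pou5f1 and Klf4 for comparison, since they hold none. That of Nanog held none of the motifs first searched for. It is shown for a composite motif that was added after its sequence had been seen. The sequences are chr6:122707239-122707488 on the plus strand for Nanog, chr8:43307010-43307259 on the minus strand for Zfp42, chr17:35505782-35506031 on the plus strand for Pou5f1 and chr4:55532476-55532725 on the minus strand for Klf4. These GRCm38.p6 positions are on another build than the mm9 peaks and cannot be set beside them. Capitals mark motif matches.
Nanog: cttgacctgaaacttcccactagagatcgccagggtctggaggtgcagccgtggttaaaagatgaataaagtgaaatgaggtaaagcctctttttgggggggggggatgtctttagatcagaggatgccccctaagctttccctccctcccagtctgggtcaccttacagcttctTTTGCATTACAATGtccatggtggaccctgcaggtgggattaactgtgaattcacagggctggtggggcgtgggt
Zfp42: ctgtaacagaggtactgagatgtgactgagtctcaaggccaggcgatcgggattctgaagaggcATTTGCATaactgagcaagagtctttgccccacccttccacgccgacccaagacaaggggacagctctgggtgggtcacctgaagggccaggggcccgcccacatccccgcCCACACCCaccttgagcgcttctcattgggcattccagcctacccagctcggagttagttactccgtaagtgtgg
Pou5f1: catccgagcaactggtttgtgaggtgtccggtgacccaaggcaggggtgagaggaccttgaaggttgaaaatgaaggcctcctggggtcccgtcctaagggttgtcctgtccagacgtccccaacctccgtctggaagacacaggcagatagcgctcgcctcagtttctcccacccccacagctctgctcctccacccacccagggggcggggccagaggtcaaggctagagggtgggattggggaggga
Klf4: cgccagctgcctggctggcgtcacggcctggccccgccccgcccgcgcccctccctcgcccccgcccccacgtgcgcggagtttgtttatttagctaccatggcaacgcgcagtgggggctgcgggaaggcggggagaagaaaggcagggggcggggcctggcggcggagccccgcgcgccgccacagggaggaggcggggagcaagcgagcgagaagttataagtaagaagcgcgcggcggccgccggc

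Motifs were searched on both strands as the octamer ATGCAAAT, the ETS motif CCGGAAGT, the Sox motif ACAAAG, the KLF motif GGGTGTGG and the paired-domain motif TTCACGC. The Zfp42 promoter held the octamer, starting 186 bases before the gene's start, and the KLF motif, starting 75 bases before it, both on the reverse strand. Of all 32851 promoters in the table, 1.60% held the octamer and 3.20% the KLF motif. The ETS, Sox and paired-domain motifs, held by 2.88%, 16.5% and 1.03% of all promoters, had no match in these 250 bases of any of the 5 genes. A composite of an octamer part and a Sox site, TTTGCAT and ACAATG with 1 base between them, was added after the Nanog sequence had been seen. It shares letters with the octamer and was matched in Nanog, where it starts 75 bases before the first start. It was found in 2 of the 32851 promoters, both of them entries of Nanog with overlapping sequence. The Klf4 promoter had 74% G and C, against 62% for Pou5f1, 58.4% for Zfp42, 52% for the Nanog sequence shown and 53.2% on average over the table.

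Called peaks were most numerous at Nanog and Klf4, equal in number at Pou5f1 and in the longer Esrrb window, few at Zfp42 and absent at Sall4. The Nanog window of 120 kb held 5 EGFP_OK, 2 Pax6, 5 Etv6 and 7 H3K4me2 peaks. In the 150 kb at Klf4 there were 2, 1, 3 and 8 peaks in the same order, and in the 70 kb at Pou5f1 there were 1, 0, 1 and 6. The 250 kb at Esrrb held 1 EGFP_OK peak, no Pax6 peak, 1 Etv6 peak and 6 H3K4me2 peaks. At Zfp42, 110 kb held 1 EGFP_OK and 1 H3K4me2 peak, and the 130 kb at Sall4 held no peak of any library. Nanog and Klf4 were thus the windows with peaks of all 4 libraries.

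**Figure D1:**
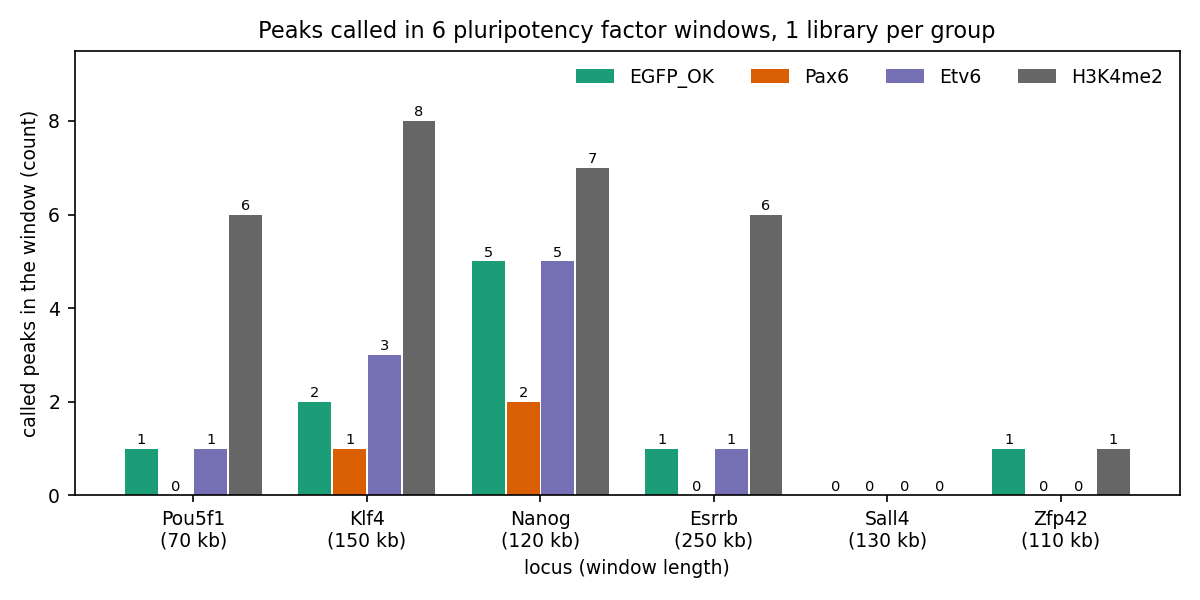
Number of called peaks (vertical axis, count) in the window of each locus (horizontal axis, with the window length), 1 bar per library. Nanog and Klf4 held peaks of all 4 libraries, and Sall4 held 0 of each.

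Over the 830 kb of the 6 windows, H3K4me2 was denser than over the genome, EGFP_OK and Etv6 were near their genome-wide density, and Pax6 was below it. H3K4me2 had 33.7 peaks per Mb in the windows and 18.7 per Mb over the whole span of the chromosomes. EGFP_OK had 12.05 per Mb against 10.7, Etv6 12.05 against 11.7 and Pax6 3.61 against 6.29, the last from 3 peaks. H3K4me2 peaks covered 6.04% of the windows' length, against 3.60% of the chromosomes. By window this share was 13.9% at Nanog, 13.7% at Pou5f1, 8.84% at Klf4, 3.63% at Esrrb, 1.35% at Zfp42 and 0% at Sall4. The covered share at Esrrb was thus close to that of the chromosomes as a whole, and those at Zfp42 and Sall4 were below it. These windows surround genes, and the genome-wide values include regions without genes.

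**Figure D2:**
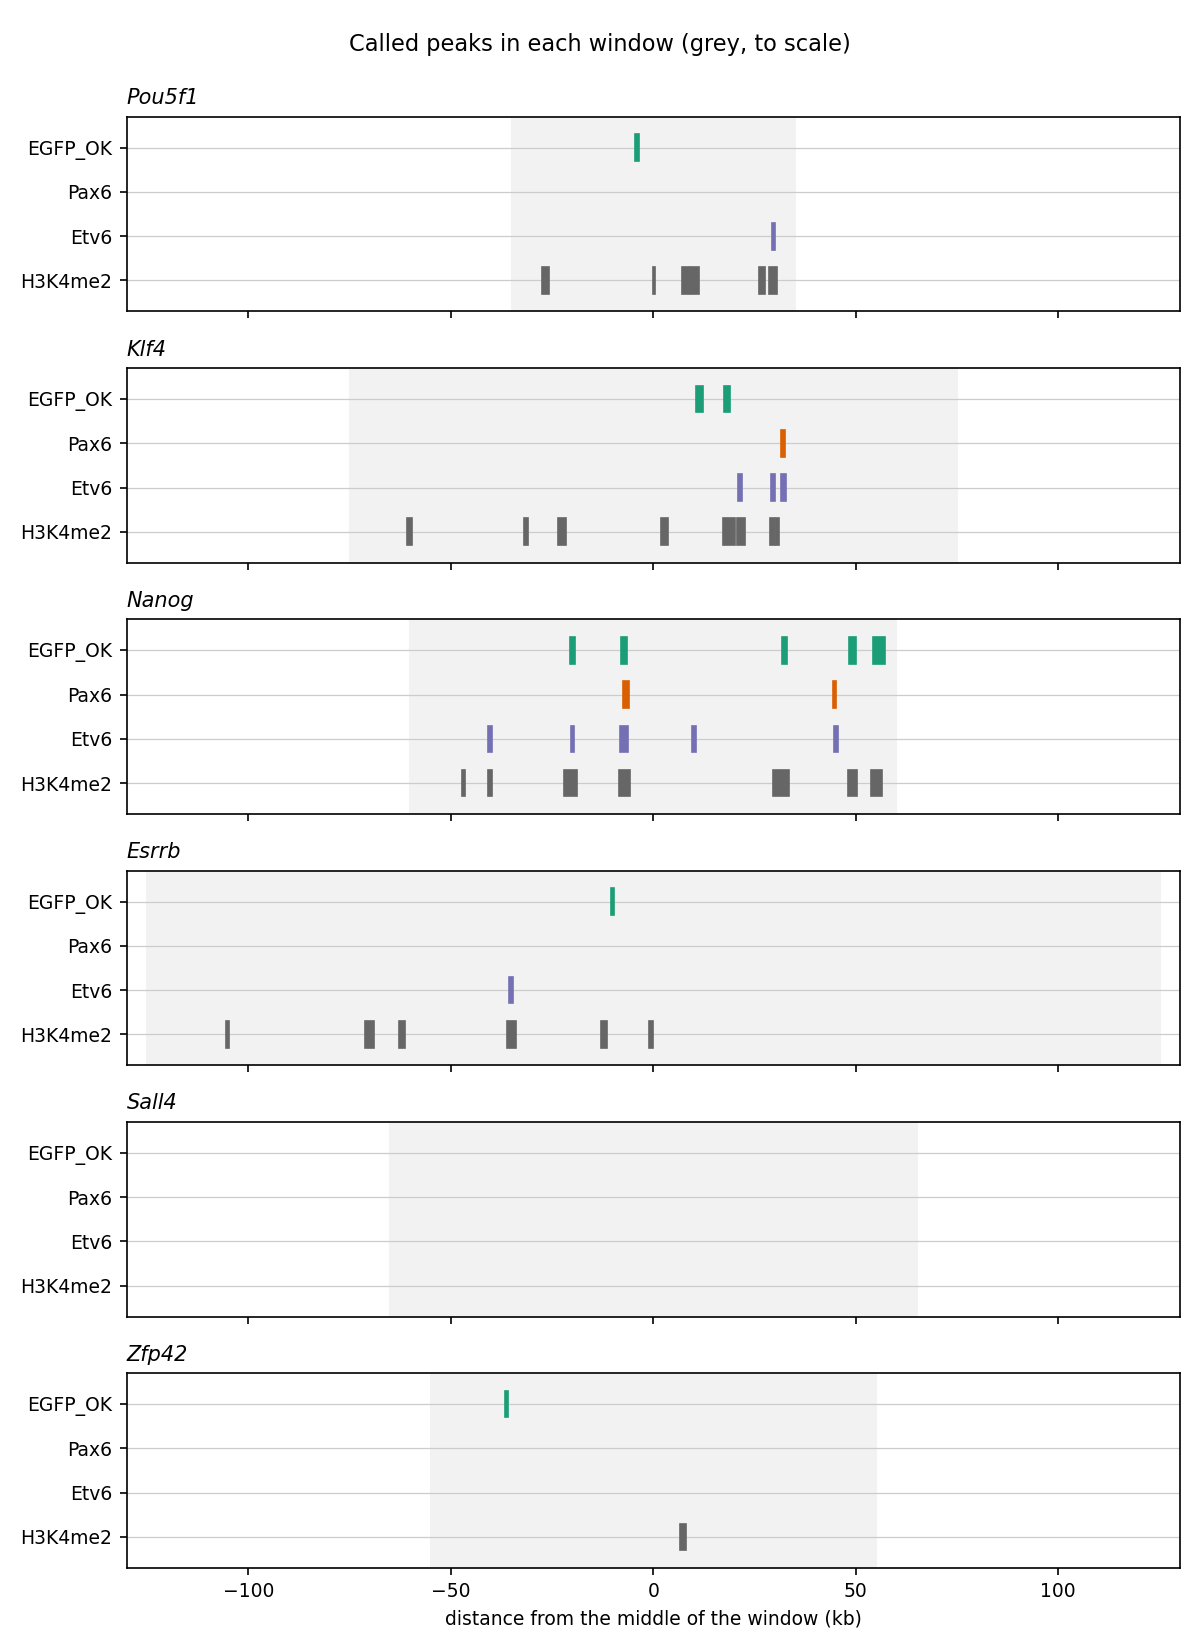
Position of each called peak (coloured boxes, drawn to scale) in the 6 windows (grey), by distance from the middle of the window in kb (horizontal axis), with 1 row per library. Peaks were spread along the Nanog window and sat to the right of the middle at Klf4 for all FLAG libraries.

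To place these counts, chromosomes 1 to 19 and X were divided into adjoining tiles of the same length as each window. At least 5 EGFP_OK peaks were found in 4.60% of 120-kb tiles, at least 5 Etv6 peaks in 8.47%, at least 2 Pax6 peaks in 19.6% and at least 7 H3K4me2 peaks in 9.46%. All 4 libraries had a peak in 26.7% of these tiles. For 150-kb tiles, as at Klf4, at least 2 EGFP_OK peaks were found in 41.8%, at least 1 Pax6 peak in 43.8%, at least 3 Etv6 peaks in 29.0% and at least 8 H3K4me2 peaks in 11.1%. The H3K4me2 count at Klf4 was thus the least common of the 4. For 70-kb tiles, as at Pou5f1, at least 6 H3K4me2 peaks were found in 3.33%, while 43.8% held an EGFP_OK peak, 41.0% an Etv6 peak and 28.7% a Pax6 peak. The shares describe the lists and are not tests, and the tiles include regions without genes.

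At Pou5f1, the octamer-binding factor itself, the EGFP_OK and Etv6 peaks lay apart from each other. The EGFP_OK peak (35640354 to 35641546 on chromosome 17) had 78 tags, which is 3.63 RPM (tags per 1000000 kept tags of the library, with a 95% Poisson interval of 2.87 to 4.53), a fold enrichment of 11.3 and a score of 206. The fold is the authors' ratio of summit to local background, and the score is −log10 of the MACS p-value, times 10, so both rank peaks within a list only. By fold this was the highest EGFP_OK peak of the 6 windows, within the highest 10.3% of its list. Its summit lay 3816 bp outside the nearest H3K4me2 peak. The Etv6 peak (35674220 to 35674970) had 33 tags, or 1.37 RPM (0.944 to 1.93), at 8.44-fold. In its own list it was within the highest 16.9% by fold and 59.4% by score. It lay 162 bp from the summit of an H3K4me2 peak.

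The 6 H3K4me2 peaks at Pou5f1 ran from 26 to 307 tags and from 3.83-fold to 6.54-fold. The highest by score, 413, was 2120 bp wide with 307 tags, or 12.5 RPM (11.1 to 14.0), at 35654140 to 35656259. A second peak of 1773 bp and 188 tags lay beside it at 35652144 to 35653916. The nearest peak to the EGFP_OK summit was also the weakest, with 615 bp and 26 tags at 35644839 to 35645453, and 92.3% of the list reached its score. The remaining peaks were at 35617540 to 35619166 with 94 tags, at 35671001 to 35672487 with 109 tags and at 35673650 to 35675594 with 113 tags, the last being the one that held the Etv6 summit. In the RefSeq table, which serves here for gene order only, Pou5f1 is followed by Tcf19, Cchcr1 and Psors1c2 and preceded by H2-Q10. Peaks in the window may therefore belong to other genes, and no mm9 gene annotation was used here to place them.

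The edge of the Pou5f1 window cut through a strong site. An EGFP_OK peak of 88 tags at 10.2-fold, an Etv6 peak of 136 tags at 6.73-fold and an H3K4me2 peak of 341 tags at 6.91-fold crossed the edge with summits 492, 330 and 216 bp outside it, so the rule left them out. They were the only peaks of the 6 windows to cross an edge in that way. The nearest Pax6 summit to the Pou5f1 window lay 6.49 kb beyond the same edge, with 25 tags at 13.0-fold.

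Nanog, the homeodomain factor of the network, had the densest FLAG signal of the 6 loci. The 5 EGFP_OK peaks had 55, 57, 46, 114 and 167 tags from the lower to the higher position. In RPM these were 2.56 (1.93 to 3.33), 2.65 (2.01 to 3.44), 2.14 (1.57 to 2.85), 5.30 (4.37 to 6.37) and 7.77 (6.63 to 9.04). The pair at the higher end, at 122708349 to 122710159 and 122714229 to 122717163 on chromosome 6, was thus above the other 3 beyond counting error. Their folds were 8.17 and 9.87, against 4.27 to 4.78 for the others, whose folds were among the lowest 10% of the EGFP_OK list. All 5 summits lay inside H3K4me2 peaks, and from the lower to the higher position they were 25, 63, 754, 292 and 2014 bp from an H3K4me2 summit. The last, at 122716474, was near the end of its H3K4me2 peak at 122716508, and the EGFP_OK peak ran beyond that end. Both stronger peaks were wider, at 1811 and 2935 bp, and per kb of peak they had 2.93 and 2.65 RPM, against 1.74 to 1.86 for the others.

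Both Pax6 peaks at Nanog met an Etv6 peak, and 2 of the 5 Etv6 peaks met a Pax6 peak. Neither of the stronger EGFP_OK peaks overlapped a Pax6 or Etv6 peak. The 5 Etv6 peaks had 45, 33, 157, 36 and 51 tags, or 1.87 (1.36 to 2.50), 1.37 (0.944 to 1.93), 6.52 (5.54 to 7.63), 1.50 (1.05 to 2.07) and 2.12 (1.58 to 2.79) RPM. The third, at 122651665 to 122653851, was within the highest 6.13% of the Etv6 list by score and was the highest Etv6 peak of the 6 windows by score, fold and tags. The 2 Pax6 peaks had 39 and 12 tags, or 7.37 (5.24 to 10.1) and 2.27 (1.17 to 3.96) RPM, at 9.79-fold and 7.81-fold. The second, at 122704488 to 122705132, was a weak call, with a score of 51.5 that 95.8% of the Pax6 list reached.

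**Figure D3:**
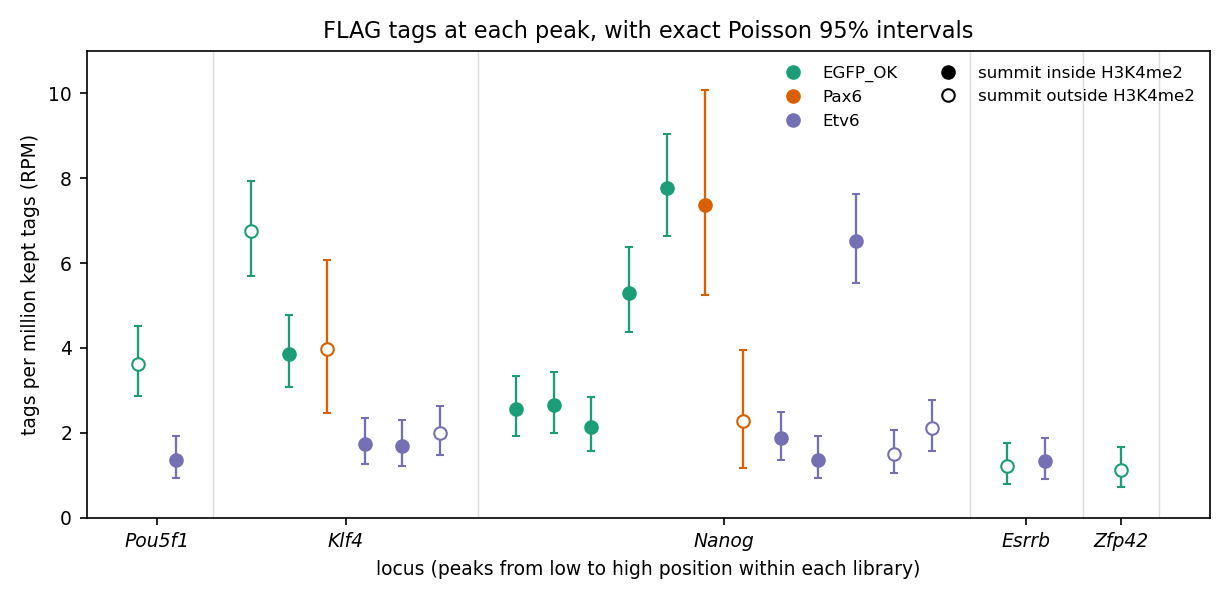
Tags in each FLAG peak in RPM, which is tags per 1000000 kept tags (vertical axis) by locus (horizontal axis), with exact Poisson 95% intervals as bars. Filled points have their summit inside an H3K4me2 peak and open points do not, and the highest values were at Nanog, with 7.77 for EGFP_OK, 7.37 for Pax6 and 6.52 for Etv6.

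A single site of the 6 windows was in all 3 FLAG lists, and it lay at Nanog, between 122651665 and 122653897. EGFP_OK had 57 tags there at 4.47-fold, Pax6 39 tags at 9.79-fold and Etv6 157 tags at 8.99-fold. In RPM the Pax6 and Etv6 intervals, 5.24 to 10.1 and 5.54 to 7.63, overlapped, and both lay above the EGFP_OK interval of 2.01 to 3.44. The libraries differ in tagged protein and in the share of duplicates removed, so these values do not rank occupancy between them. The widths of the peaks differed, at 1494, 1506 and 2187 bp for EGFP_OK, Pax6 and Etv6. The H3K4me2 peak around the site, 2854 bp wide with 352 tags at 7.05-fold, had a score of 673, within the highest 2.49% of its list and the highest of the 28.

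At that site the summits fell in pairs. The Pax6 summit was 8 bp from the Etv6 summit, whereas the EGFP_OK summit was 538 bp from the former and 546 bp from the latter. The EGFP_OK summit lay 63 bp from the H3K4me2 summit, and the Pax6 and Etv6 summits lay 475 and 483 bp from it. These pairs match N31 and NS in the titles, so the protein bound and the title group cannot be told apart here. A further Nanog site, at 122639343 to 122640721, was shared by EGFP_OK and Etv6, with summits 145 bp apart and no Pax6 peak. There the EGFP_OK summit was 25 bp and the Etv6 summit 120 bp from the H3K4me2 summit. The remaining shared site at Nanog had Pax6 and Etv6 summits 98 bp apart and both over 3 kb from any H3K4me2 peak, at 3197 and 3099 bp.

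**Figure D4:**
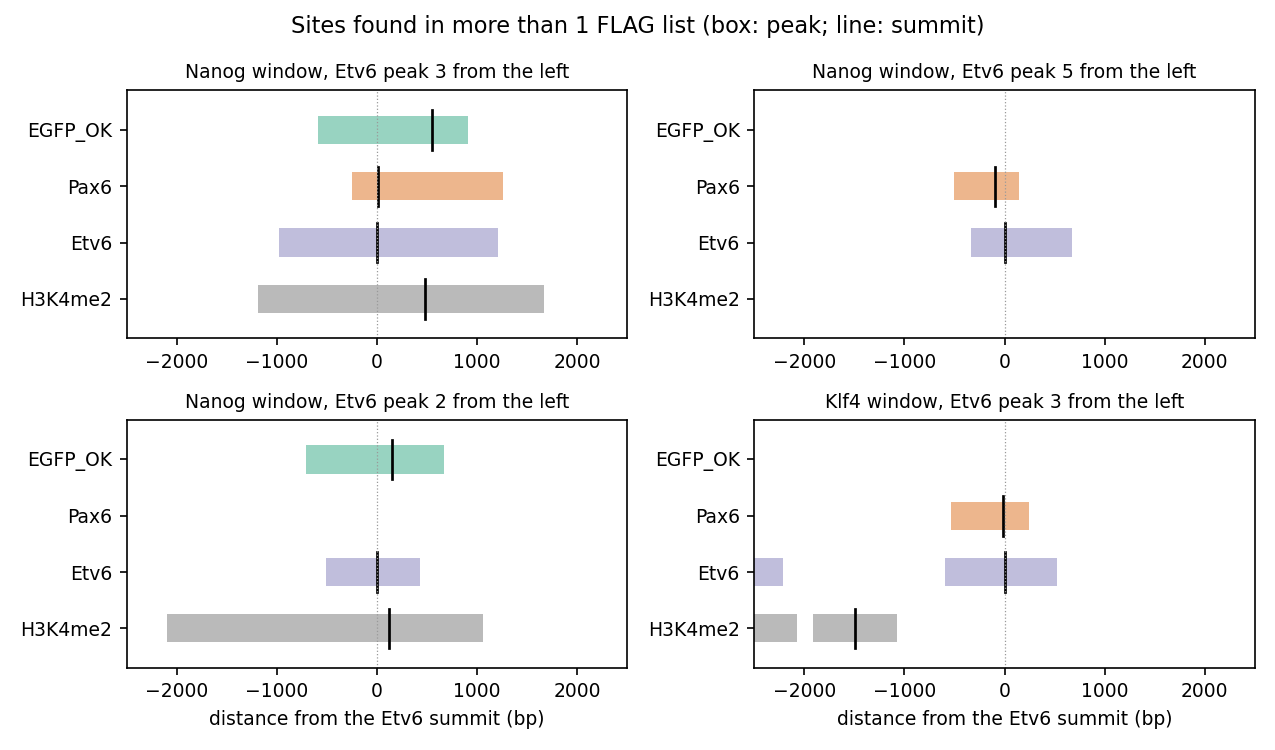
Peaks (boxes) and summits (black lines) of the 4 libraries at the 4 sites found in more than 1 FLAG list, by distance in bp from the Etv6 summit (horizontal axis). At the site shared by all FLAG libraries (upper left), Pax6 and Etv6 summits were 8 bp apart and the EGFP_OK summit lay 546 bp to the right.

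Of the H3K4me2 list, 40.3% held a FLAG summit, as did 23.8% of the 21 peaks in the other windows. At Nanog it was 6 of the 7 H3K4me2 peaks. The 3 highest by score were the peak at the shared site, a peak of 3967 bp and 412 tags at 122689643 to 122693609 with a score of 500.4, and a peak of 2693 bp and 405 tags at 122713816 to 122716508 with a score of 427. Of these, the second held the third EGFP_OK summit, and the last held the fifth. A peak of 3154 bp and 249 tags at 122637959 to 122641112 held EGFP_OK and Etv6 summits. Another of 2251 bp and 186 tags at 122708089 to 122710339 held the fourth EGFP_OK summit, and one of 1043 bp and 54 tags at 122619179 to 122620221 held the first Etv6 summit. The peak without a FLAG summit was the weakest, with 34 tags over 772 bp. In the RefSeq gene order Nanog lies between Dppa3 and Slc2a3. Dppa3 is a maternal factor that is also expressed in stem and germ cells, and Slc2a3 is a glucose transporter of neurons, so the marked regions need not all belong to Nanog.

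At Klf4, a factor used in reprogramming, the 3 FLAG libraries all had their peaks between 55535599 and 55557675, but few at the same place. The first EGFP_OK peak, at 55535599 to 55537377 on chromosome 4, had 145 tags, or 6.74 RPM (5.69 to 7.94), at 7.90-fold. Its score of 259.7 was the highest among the EGFP_OK peaks of the windows and within the highest 8.64% of the list, and its summit lay 5448 bp outside H3K4me2. The second, at 55542427 to 55543978, had 83 tags, or 3.86 RPM (3.08 to 4.79), at 4.22-fold, and lay 204 bp from an H3K4me2 summit. The intervals of the pair did not overlap. No EGFP_OK peak overlapped a Pax6 or Etv6 peak here.

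The 3 Etv6 peaks at Klf4 were all low in their list, with 42, 41 and 48 tags, 4.69-fold, 5.69-fold and 5.12-fold, and scores of 63.3, 64.3 and 60.2. Their values in RPM, 1.74 (1.26 to 2.36), 1.70 (1.22 to 2.31) and 1.99 (1.47 to 2.64), did not differ beyond counting error. The third, at 55556560 to 55557675, coincided with the Pax6 peak of 21 tags at 55556622 to 55557402, and the summits were 17 bp apart. Pax6 had 3.97 RPM there (2.46 to 6.07) at 14.2-fold, the highest fold of the 3 Pax6 peaks and within the highest 13.6% of the list. The site lay 1062 bp outside H3K4me2 by the Pax6 summit and 1079 bp by the Etv6 summit.

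The 8 H3K4me2 peaks at Klf4 ran from 43 to 443 tags and from 3.85-fold to 7.71-fold. The 3 highest by score were at 55501339 to 55503318 with 154 tags and a score of 454, at 55542215 to 55545269 with 443 tags and 416, and at 55526899 to 55528725 with 151 tags and 413. The second of these, 3055 bp wide, held the second EGFP_OK summit and had the most tags of any of the 28 H3K4me2 peaks. Peaks of 180 tags at 55545738 to 55547550 and of 63 tags at 55553751 to 55555086 held an Etv6 summit each. The RefSeq order places Rad23b and Actl7b next to Klf4.

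Esrrb, the orphan nuclear receptor, had the longest window and little FLAG signal. The EGFP_OK peak at 87764538 to 87765372 on chromosome 12 had 26 tags, or 1.21 RPM (0.790 to 1.77), at 5.20-fold, and lay 1604 bp outside H3K4me2. The Etv6 peak at 87739482 to 87740396 had 32 tags, or 1.33 RPM (0.909 to 1.88), at 6.52-fold, and its summit was inside an H3K4me2 peak. Both were weak calls, since 90.4% of the EGFP_OK list and 84.1% of the Etv6 list reached their scores. At least 1 peak of EGFP_OK was found in 71.0% of 250-kb tiles, of Etv6 in 63.1% and of Pax6 in 55.2%. The nearest Pax6 summits lay 208 kb and 237 kb outside the window.

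The 6 H3K4me2 peaks at Esrrb all lay at lower positions than the middle of the window and ran from 41 to 157 tags. The peak with the highest fold of all 28, 11.3, was at 87773810 to 87774874, 1065 bp wide with 66 tags, within the highest 2.71% of the H3K4me2 list by fold but within the highest 35.3% by score. The peak that held the Etv6 summit, at 87738771 to 87741199, was the widest of the window with 2429 bp, and had 157 tags at 3.93-fold. The others were at 87669388 to 87670222 with 41 tags, 87703921 to 87705960 with 125 tags, 87712283 to 87713617 with 63 tags and 87762114 to 87763473 with 71 tags. At least 6 H3K4me2 peaks were found in 35.6% of 250-kb tiles, so this count was a common one.

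Zfp42 and Sall4 had the least. At Zfp42 the EGFP_OK peak, at 44348365 to 44349132 on chromosome 8, had 24 tags, or 1.12 RPM (0.715 to 1.66), at 7.43-fold, and 95.8% of the EGFP_OK list reached its score. Its summit lay 42645 bp from the nearest H3K4me2 peak. That peak, the only one in the window, was at 44391504 to 44392986 with 88 tags, or 3.58 RPM (2.87 to 4.42), at 7.82-fold. Of 110-kb tiles, 54.3% held at least 1 EGFP_OK peak, 57.3% an H3K4me2 peak, 49.4% an Etv6 peak and 37.5% a Pax6 peak. The nearest Etv6 summits to the window were 1136 kb and 669 kb away, and the nearest Pax6 summits 1136 kb and 541 kb away.

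The empty Sall4 window lay in a wider gap. The nearest H3K4me2 summits were 66.1 kb to one side and 88.2 kb to the other, which leaves 284 kb between them. The nearest EGFP_OK summits were 76.7 kb and 131 kb away, and the nearest Etv6 summits 66.4 kb and 131 kb away. For Pax6 the distances were 75.2 kb and 1696 kb. Of 130-kb tiles, 25.3% held no peak of any library, while 60.2% held an H3K4me2 peak, 58.2% an EGFP_OK peak, 52.3% an Etv6 peak and 41.0% a Pax6 peak. An empty tile was therefore common, but tiles include regions without genes, so how common an empty window around a gene is was not tested. An empty window means that no peak was called there, not that no tag was present.

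The EGFP_OK summits that lay in H3K4me2 were mainly at Nanog, and those of Etv6 were spread over 4 of the windows. For EGFP_OK, 6 of 10 summits were inside an H3K4me2 peak, or 60% (95% Clopper-Pearson interval 26.2 to 87.8), against 26.9% of the whole list. All but 1 of the 6 were at Nanog, and without that window the share was 20% of 5 summits. For Etv6 it was 7 of 10, or 70% (34.8 to 93.3), against 51.9% of the list, and 80% of 5 without Nanog. For Pax6 it was 1 of 3, at 33.3% (0.840 to 90.6), against 43.7%. The mark was measured in a library titled N31, so the Etv6 and Pax6 shares do not give its state in the NS-titled libraries. The interval of each library holds the share of its whole list, for EGFP_OK only just, at 26.2 against 26.9. It treats peaks as independent draws, which peaks of 1 window need not be, so it is no test of a difference. From the side of the mark, 11 of 28 H3K4me2 peaks held a FLAG summit, or 39.3% (21.5 to 59.4), against 40.3% of the list. Those 11 had a median width of 2429 bp and the other 17 a median of 1360 bp, against 2133 bp and 1384 bp over the whole list.

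Among peaks with their summit in a window, overlap between EGFP_OK and Etv6 was near that of the whole lists. Merging overlapping peaks left 18 FLAG sites, of which 8 were of EGFP_OK alone, 6 of Etv6 alone, 2 of Pax6 and Etv6, 1 of EGFP_OK and Etv6, and 1 of all 3. All 3 Pax6 peaks overlapped an Etv6 peak (100%, interval 29.2 to 100), against 72.6% of the Pax6 list, so none of the 3 was in no other FLAG list, against 23.9%. An EGFP_OK peak was at 1 of the 3, or 33.3%, against 20.1%. Of the 10 Etv6 peaks, 3 overlapped Pax6 (30%, against 38.9%) and 2 overlapped EGFP_OK (20%, against 19.2%), and 6 were in no other FLAG list (60%, against 50.9%). Of the 10 EGFP_OK peaks, 2 overlapped Etv6 (20%, against 20.9%) and 1 overlapped Pax6 (10%, against 11.7%). The other 8 were in no other FLAG list (80%, against 77.0%). Outside Nanog no EGFP_OK peak with its summit in a window met another FLAG peak. The EGFP_OK and Etv6 peaks across the Pou5f1 edge did overlap each other, and with windows widened by 50 kb at each edge the EGFP_OK share with Etv6 was 43.8% of 16 peaks.

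Peaks at these loci were of middling strength in their lists. The median fold was 6.32 for the 10 EGFP_OK peaks, against 7.04 over the list, 6.44 against 6.26 for Etv6, 9.79 against 10.6 for Pax6 and 5.49 against 5.82 for H3K4me2. By score the medians were 90.7 against 92.8 for EGFP_OK, 73.9 against 93.3 for Etv6, 96.5 against 73.1 for Pax6 and 148 against 171 for H3K4me2. Only 1 EGFP_OK peak (at Klf4), 1 Etv6 peak (at Nanog) and 2 H3K4me2 peaks (both at Nanog) were among the highest 10% of their list by score. EGFP_OK peaks were often wide, 8 of 10 exceeding the list's median of 1143 bp, and 2 of 10 Etv6 peaks exceeded theirs of 1113 bp. Of the H3K4me2 peaks, 3 of 28 were wider than 3 kb (10.7%, interval 2.27 to 28.2), against 14.4% of the list, and these were 2 peaks at Nanog and 1 at Klf4.

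**Figure D5:**
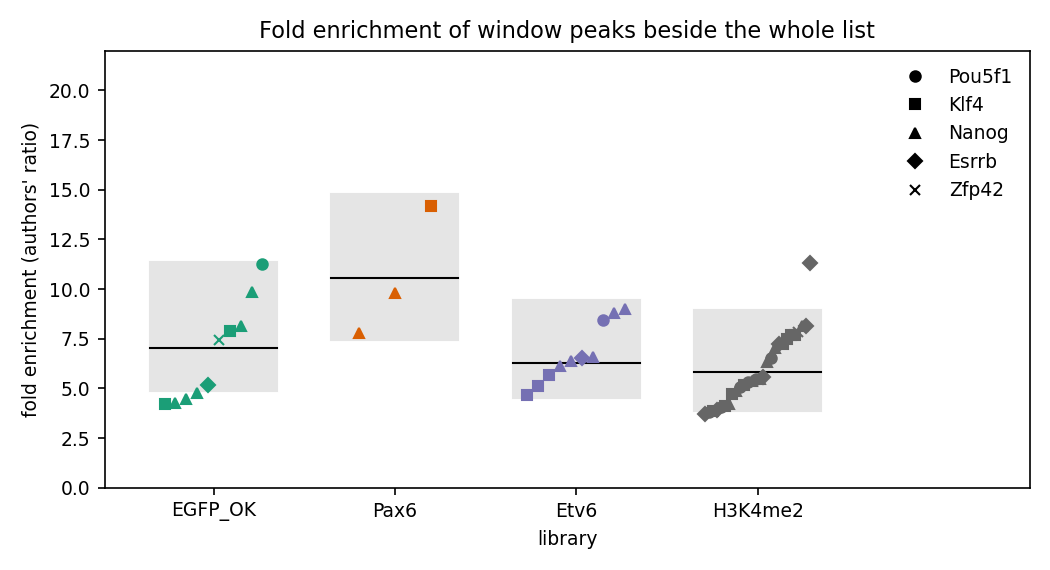
Fold enrichment (vertical axis, the authors' ratio) of every peak in the windows, by library (horizontal axis) and with 1 symbol per locus. Grey boxes run from percentile 10 to percentile 90 of the whole list and lines mark its median, and the Pou5f1 peak at 11.3 led EGFP_OK while an Esrrb peak at 11.3 led H3K4me2.

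The few tags kept in the Pax6 library, after 81% were removed as duplicates, limit what its missing peaks can show. Of the 10 Etv6 peaks, 7 had no Pax6 peak, and they held 32 to 45 tags. Scaled by the ratio of kept tags, 0.220, these would give 7.03 to 9.89 tags in the Pax6 library, and the weakest called Pax6 peak anywhere had 10 tags. All 7 scaled values were thus under the lowest called count, but most of them were within counting error of it. That count is not a fixed limit of the caller, so whether such a signal would have been called was not tested. At the 3 Etv6 peaks that did have a Pax6 peak, the scaled values were 10.5, 34.5 and 11.2 tags. The Pax6 counts there were 21, 39 and 12, so the scaling did not always come near the count. With so few kept tags, the lack of a Pax6 peak in the Pou5f1, Esrrb, Zfp42 and Sall4 windows does not show that Pax6 was absent there.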

How the data were processed

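ChIP-seq peaks were taken from the authors' deposited lists, 1 per library. Per the submitters' processing notes, CASAVA 1.8.1, BWA 0.6.2, MACS 1.4.2 and build mm9 were used. Per the file headers, MACS 1.4.2 called peaks on each library without a control, at a p cutoff of 1e-05, with 1 tag kept per position. The deposited tag counts are raw counts per peak. The deposited score is the −log10 of the p-value times 10, per the file headers, and the deposited fold is a ratio of the summit to background. With no control, accessibility and copy number remain in the lists.

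Peaks on chromosomes 1 to 19 and X were kept. Membership, overlaps of at least 1 bp, tiles and exact 95% intervals were computed in Python 3.11.15 (scipy 1.17.1, pandas 2.3.3, numpy 2.4.6). The overlap functions were tested on simulated data. RPM here is tags divided by kept tags, times 1000000. The 6 loci, motifs and naming rule (every FLAG peak, and H3K4me2 peaks singly where a window held at most 6, otherwise the 3 highest and those with a FLAG summit) were chosen with earlier results of these data known. Genes were not assigned, as the gene table is GRCm38, and a list of further pluripotency genes was not counted for that reason.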

Additional observations from a re-analysis of the deposited data

How the results depend on the processing

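No paired analysis was possible because each group is 1 library. Counts over the windows depended on the edges and thresholds. With windows narrowed by 25% at each edge, EGFP_OK had 6 peaks and H3K4me2 17. Widened by 50 kb at each edge, the windows held 16 EGFP_OK, 5 Pax6, 20 Etv6 and 47 H3K4me2 peaks. Both settings change the total length from 830 kb, so the counts would move at an equal density too. They do not show that peaks per Mb depended on the edges. With a score of at least 100 there were 4 EGFP_OK, 1 Pax6 and 2 Etv6 peaks, and with a fold of at least 10 there was 1 EGFP_OK, 1 Pax6, 0 Etv6 and 1 H3K4me2 peak. The whole lists lose most of their peaks too. Their median scores were 92.8 for EGFP_OK, 73.1 for Pax6 and 93.3 for Etv6. Median folds were 7.04 for EGFP_OK, 6.26 for Etv6 and 5.82 for H3K4me2, and only the Pax6 median, 10.6, exceeded 10. Taking any overlap with the window added 1 peak each to EGFP_OK, Etv6 and H3K4me2, at Pou5f1.

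With both lists held to scores from 100 upward, the share in H3K4me2 was 100% for the 1 Pax6 and the 2 Etv6 peaks left, H3K4me2 peaks with a FLAG summit made up 18.2%, and EGFP_OK overlapped Pax6 and Etv6, and each of them EGFP_OK, at 0%. Without the Nanog window, an alternative added after the data had been seen, the share in H3K4me2 was 20% for EGFP_OK and 0% for the 1 Pax6 peak, and every overlap with EGFP_OK was 0%. With summits within 200 bp, EGFP_OK and Pax6 shared 0% in either direction. Fewer peaks enter the first 2 of these settings. The other overlaps and the covered length stayed within the interval or 1.5 times the value given. In single windows, 41 of 132 values changed by more than 1.5 times. The 132 include windows without a called peak of a library, such as Sall4, which stricter or narrower settings cannot change. The share therefore understates the change where peaks were present.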
